A study of Homo sapiens with 2 samples.

Results

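Flag chromatin immunoprecipitation sequencing of ZFP64 in liver cancer cells gave 490 peaks that lay wholly upstream of an annotated transcription start, with the nearer edge 1 to 1000 bp away. They were chosen by the deposited annotation alone, as rows classed within 1 kb of a start with a distance below 0. They make up 7.69% (exact binomial 95% interval 7.05 to 8.37) of the 6373 peaks and were assigned to 479 of 5246 genes. The cells were PLC/PRF/5, an established human liver cancer line, carrying a lentivirus for ZFP64 overexpression, so both libraries share that genotype. The study has 1 library precipitated with a Flag antibody and 1 input library without precipitation, neither replicated. No Flag ChIP from cells lacking the tagged protein was used here, so enrichment by the antibody alone cannot be told apart from ZFP64. Expression was not measured, so the liver identity of the cells was not checked against markers.

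The bases just before a transcription start form the proximal promoter, where sequence-specific factors bind beside the assembling polymerase. Many human promoters there are CpG islands, rich in G and C, and often lack a TATA box. Transcription from such promoters commonly runs in both directions, and some neighbouring genes share a promoter head to head. ZFP64 is a zinc finger protein that binds DNA, and the series title places it between protein kinase C alpha and the macrophage growth factor CSF1 in hepatocellular carcinoma.

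The sequence before 5 of these starts shows what the upstream peaks cover. Each line gives the 250 bases before a RefSeq start in GRCh38, 5′ to 3′ on the strand of the gene, with the bases inside the peak in capitals. EGLN1 (chr1:231422288-231422537, minus strand) had the widest peak and CLPTM1L (chr5:1345100-1345349, minus) a high peak with an edge next to the start. STON2 (chr14:81436466-81436715, minus) and ZNF70 (chr22:23751113-23751362, minus) had their summit inside the stretch. PRKD1 (chr14:29927848-29928097, minus) encodes protein kinase D1, a kinase that protein kinase C enzymes activate.
EGLN1: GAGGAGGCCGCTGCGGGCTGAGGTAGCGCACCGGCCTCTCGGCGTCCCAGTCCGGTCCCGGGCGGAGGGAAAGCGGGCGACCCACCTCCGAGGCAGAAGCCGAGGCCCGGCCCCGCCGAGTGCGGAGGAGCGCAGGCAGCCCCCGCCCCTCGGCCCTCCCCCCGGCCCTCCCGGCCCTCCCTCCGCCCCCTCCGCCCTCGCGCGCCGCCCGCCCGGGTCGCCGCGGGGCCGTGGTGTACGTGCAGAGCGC
CLPTM1L: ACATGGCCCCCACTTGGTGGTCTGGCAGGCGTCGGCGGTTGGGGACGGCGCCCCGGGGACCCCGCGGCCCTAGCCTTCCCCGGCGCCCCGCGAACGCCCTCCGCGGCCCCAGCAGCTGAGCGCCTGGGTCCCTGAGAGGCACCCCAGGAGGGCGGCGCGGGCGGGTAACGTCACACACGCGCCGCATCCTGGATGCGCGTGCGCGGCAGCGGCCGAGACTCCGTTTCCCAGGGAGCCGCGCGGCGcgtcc
STON2: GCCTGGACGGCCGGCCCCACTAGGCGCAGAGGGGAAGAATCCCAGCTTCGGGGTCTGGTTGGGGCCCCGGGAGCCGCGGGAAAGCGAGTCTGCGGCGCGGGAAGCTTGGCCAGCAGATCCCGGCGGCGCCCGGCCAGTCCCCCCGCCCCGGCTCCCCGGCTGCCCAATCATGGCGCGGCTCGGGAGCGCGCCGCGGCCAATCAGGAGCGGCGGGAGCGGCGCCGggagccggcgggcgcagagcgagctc
ZNF70: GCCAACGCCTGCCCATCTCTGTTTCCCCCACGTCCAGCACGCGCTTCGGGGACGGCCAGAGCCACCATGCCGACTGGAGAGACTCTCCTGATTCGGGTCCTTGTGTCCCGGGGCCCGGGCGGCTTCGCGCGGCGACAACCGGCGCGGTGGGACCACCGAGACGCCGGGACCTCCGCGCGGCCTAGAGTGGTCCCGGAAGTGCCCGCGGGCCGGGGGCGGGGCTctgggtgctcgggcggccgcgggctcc
PRKD1: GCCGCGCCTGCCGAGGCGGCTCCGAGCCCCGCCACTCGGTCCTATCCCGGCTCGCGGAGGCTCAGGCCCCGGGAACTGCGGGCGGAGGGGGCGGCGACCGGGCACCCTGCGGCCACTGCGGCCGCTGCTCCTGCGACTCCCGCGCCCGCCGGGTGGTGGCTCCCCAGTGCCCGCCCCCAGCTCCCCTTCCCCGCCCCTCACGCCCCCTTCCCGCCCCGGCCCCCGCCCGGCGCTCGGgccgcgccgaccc
The capitals reach the start itself at EGLN1 and stop short of it at the other 4. The stretch was 81.2% G and C at EGLN1, 77.2% at CLPTM1L, 77.6% at STON2, 74.8% at ZNF70 and 82.8% at PRKD1. Within the peak, the GC box (GGGCGG or CCGCCC) matched 6 times at EGLN1, 2 times at CLPTM1L, 1 time at STON2, 2 times at ZNF70 and 6 times at PRKD1.

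The highest upstream peak lay at GALNT1, which encodes an enzyme that starts mucin-type O-glycosylation, with a fold of 40.3. Fold is the authors' deposited ratio of the ChIP signal to the background expected at the peak summit. Recovered from fold and p-value, 145 ChIP fragments (exact Poisson 95% interval 122.4 to 170.6) lay there over an expected background of 2.62. EGLN1, the prolyl hydroxylase that senses oxygen and marks hypoxia-inducible factor for destruction, had a fold of 38.9 from 139 fragments (116.9 to 164.1) over 2.60. POLR2B, a large subunit of RNA polymerase II, had a fold of 34.8 from 85 fragments (67.9 to 105.1) over 1.47. These 3 ranked 1, 2 and 3 of the 490. Every peak was called for exceeding this background, so intervals that lie above it add no separate evidence. Intervals here cover counting error only. With 1 library of each kind, no value has a replicate error.

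RFWD3, a ubiquitin ligase of DNA crosslink repair, had a fold of 32.8 with its peak edge 360 bp before the start. PIMREG, a regulator of mitosis, had 32.0 at 105 bp, and NLE1, a ribosome assembly factor, 31.6 at 894 bp. The zinc finger gene ZNF367 and CLPTM1L, a membrane protein gene that neighbours TERT, both had 30.3, at 536 and 6 bp. ANKH, which handles pyrophosphate export, had 29.9 at 128 bp, and the microRNA gene MIR3190 had 29.7 at 335 bp. The 10 highest peaks therefore lay anywhere from 6 to 894 bp before their starts, and they were assigned to genes of varied function. Folds of 20 or more were found in 25 upstream peaks. Others among them, named after their values were seen, were the protein disulfide isomerase gene P4HB (29.7), the Hippo pathway gene WWC1 (28.0) and the clock repressor gene BHLHE41 (21.1).

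At the other end, PAPSS2, an enzyme gene of sulfate activation, had the lowest fold, 3.04, from 12 fragments (6.20 to 21.0) over 3.28. The median upstream peak had a fold of 5.73 (quartiles 4.65 to 8.46), 17 fragments (13 to 25) and a background of 1.99. Only 9 of the 490 rested on fewer than 10 fragments, with a minimum of 8. Folds of 10 or more were found in 82 members (16.7%, 13.5 to 20.3), against 27.6% of all 6373 peaks and 31.5% of the 4905 promoter peaks. Folds of 20 or more were found in 5.10% of members against 10.1% of all peaks, and a −log10 q of 10 or more in 37.8% against 49.8%. Upstream peaks were thus less often high than the list as a whole, as was every other class that does not overlap a start. Folds of 10 or more made up 14.1% of downstream peaks, 15.9% of promoter peaks 1 to 3 kb out and 14.6% of non-promoter peaks. Start-overlapping peaks reached 42.2%. Peaks of 1 library are not replicates, so these shares carry no p-value.

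**Figure D1:**
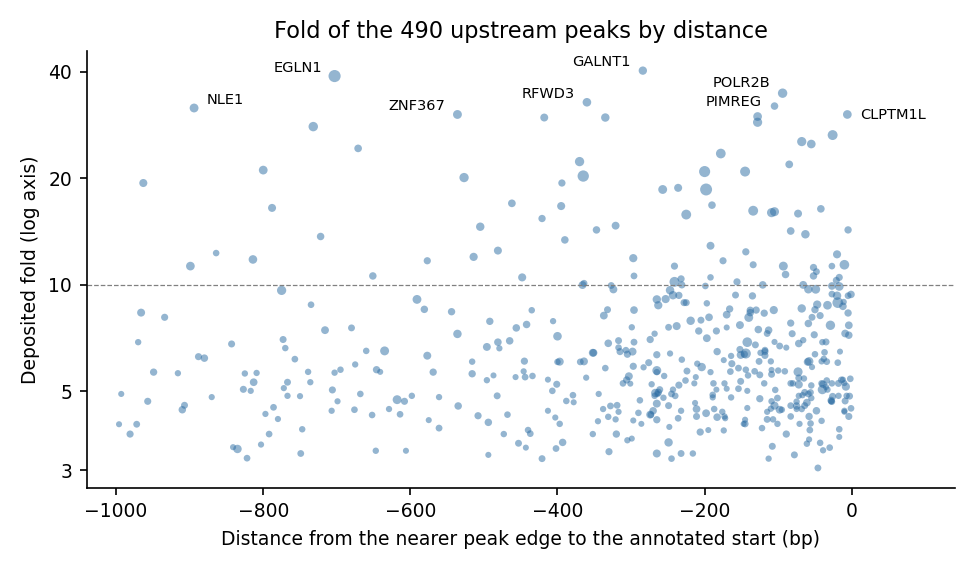
Deposited fold (log axis) of each of the 490 upstream peaks against the distance from its nearer edge to the annotated start in bp, with point size growing with peak width and a dashed line at a fold of 10. High and low peaks occur at all distances, and GALNT1 stands highest at 40.3.

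The plot of fold against distance shows little order, with a Spearman's rho of -0.063 over the 490 peaks, which share 1 library. The 308 members within 300 bp had a median fold of 5.86, the 107 over 300 and up to 600 bp away 6.06, and the 75 farther out 5.31. Folds of 10 or more made up 16.2%, 18.7% and 16.0% of them, shares that differ by less than their intervals (12.3 to 20.8, 11.8 to 27.4 and 8.55 to 26.3). The farthest members, HIVEP1 at 996 bp and the stress gene DDIT4 at 993 bp, had folds of 4.04 and 4.92. Just outside the 1 kb limit, NR5A2, a nuclear receptor gene of the liver, had a fold of 23.2 and TNRC18 10.3, both at 1014 bp, and TRIB1 3.31 at 1031 bp. At the near limit, STT3B and RABEPK lay 1 bp before the start, with folds of 4.48 and 9.40.

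Most upstream peaks lay close to the start, and fewer than on the downstream side. Of the 490, 130 (26.5%) had an edge within 100 bp, 230 (46.9%, 42.4 to 51.5) within 200 bp and 396 (80.8%, 77.0 to 84.2) within 500 bp. Of the 1093 peaks wholly downstream within 1 kb, 447 lay within 100 bp, 3.44 times the upstream number, and 682 (62.4%, 59.4 to 65.3) within 200 bp. From 101 to 200 bp there were 2.35 times as many downstream as upstream. In the bins farther out the ratio ran from 0.962 (26 upstream and 25 downstream, at 701 to 800 bp) to 2.42 (19 and 46, at 501 to 600 bp), and downstream peaks were more numerous in all of them but that at 701 to 800 bp. The median summit position relative to the start was -466.5 bp (quartiles -702.8 to -315.0), and 41 summits lay beyond 1 kb though the peak edge did not.

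**Figure D2:**
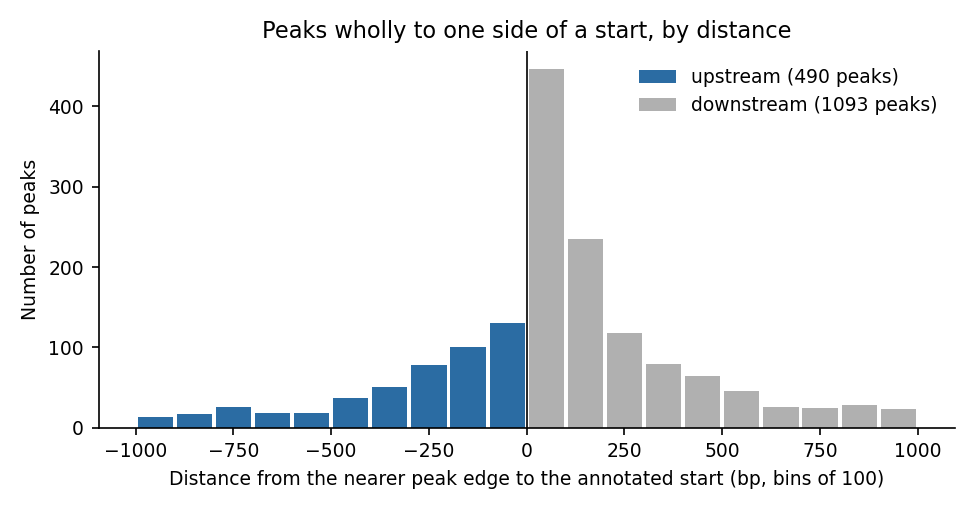
Number of peaks wholly upstream (490, blue) and wholly downstream (1093, grey) of the annotated start, in bins of 100 bp by the distance of the nearer peak edge. The nearest bins hold 130 upstream and 447 downstream peaks, and both sides fall away with distance.

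By summit rather than by edge, far more promoter peaks were upstream. A summit 1 to 1000 bp before the start was found in 1296 promoter peaks, 449 of them members and 847 peaks that overlapped the start. Start-overlapping peaks were wider, with a median of 741 bp over the whole class of 2969. For the upstream members the median width was 426 bp, with quartiles of 336 and 559, close to the 429 bp of downstream peaks and the 402 bp of promoter peaks 1 to 3 kb out. A narrow peak is more likely than a wide one to lie wholly on a side of a start, so the rule itself favours narrow peaks.

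At like width, upstream peaks and start-overlapping peaks had similar folds. The median fold was 5.73 for upstream peaks (95% interval of the median 5.53 to 6.08) and 8.64 (8.39 to 8.91) for start-overlapping peaks of all widths. Among peaks under 350 bp, the medians were 4.88 (145 upstream) and 4.78 (279 over the start), and from 350 to under 500 bp they were 5.43 and 5.82. From 500 to under 750 bp they were 8.01 and 8.09, and at 750 bp or more 14.8 (50 upstream) and 13.3 (1463). The 2 classes differed in how many wide peaks they held, 10.2% of upstream peaks against 49.3%. Across the 490, wider peaks had higher folds (Spearman's rho 0.570, a description across peaks of 1 library).

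**Figure D3:**
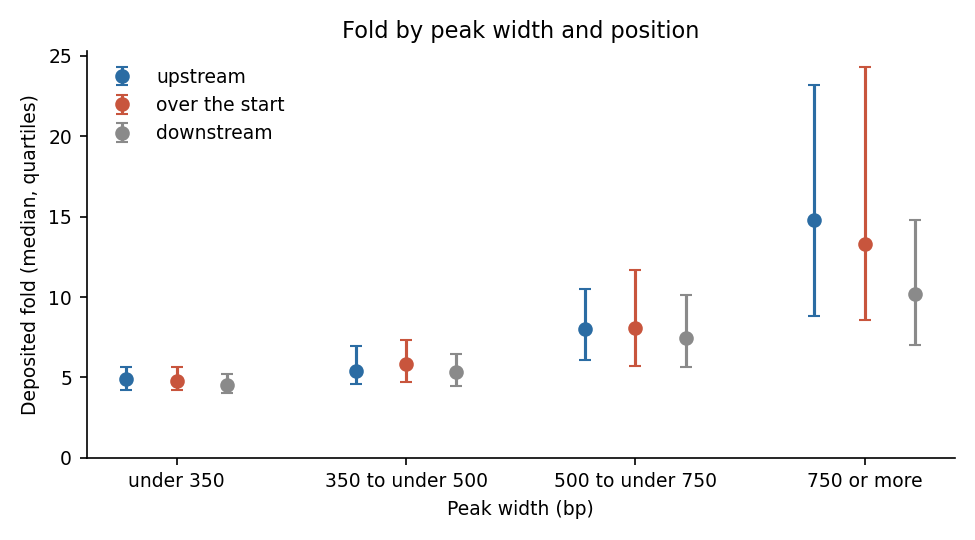
Median deposited fold with quartiles (bars) by peak width, for peaks upstream of, over and downstream of the start. In the widest group the medians are 14.8, 13.3 and 10.2, while in the narrowest they are 4.88, 4.78 and 4.55.

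Downstream peaks had a median fold of 5.53 (5.35 to 5.67), an interval that overlaps the upstream one. Among peaks of 350 to under 500 bp, however, folds of 10 or more were found in 18 of 175 upstream peaks (10.3%, 6.21 to 15.8) and in 7 of 376 downstream peaks (1.86%, 0.752 to 3.8). Start-overlapping peaks of that width reached it in 7.45%. The upstream and downstream intervals overlapped in wider peaks, with 27.5% (19.7 to 36.4) and 26.0% (20.5 to 32.1) from 500 to under 750 bp, and 62.0% (47.2 to 75.3) and 50.6% (42.8 to 58.3) at 750 bp or more. Under 350 bp none of the 145 upstream peaks did, so that a share of up to 2.07% is possible at a limit of 3 counts. Nor did any of the 279 start-overlapping or 312 downstream peaks under that width. The widest members were EGLN1 (1797 bp), SAMD4A (1738 bp, fold 18.6), the LIM homeobox gene LMX1B (1532 bp, 20.3), PITPNM2 (1464 bp, 20.9) and the zinc finger gene SALL1 (1337 bp, 8.91).

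RefSeq starts placed many of these peaks differently from the deposited annotation. RefSeq promoters were found for the genes of 376 members. Relative to the nearest RefSeq start of the same gene, 227 (60.4%, 55.2 to 65.4) lay upstream within 1 kb and 30 farther upstream. The peak covered the RefSeq start at 29 (7.71%), and lay downstream of it at 90, within 1 kb at 46 and farther at 44. By the same measure, 80.7% (78 to 83.3) of downstream peaks lay downstream within 1 kb, and 69.2% (67.3 to 71.0) of start-overlapping peaks covered a RefSeq start. Of the 3 classes, the upstream one kept its place relative to the start least often under RefSeq. For 190 of the 376 (50.5%), the deposited start lay within 100 bp of a RefSeq start.

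The highest peaks show both cases. At CLPTM1L and ANKH the deposited and RefSeq starts were the same base, and the peaks lay 6 and 128 bp before it. At RFWD3 the starts were 4 bp apart. At GALNT1 the deposited start was also a RefSeq start, 284 bp from the peak, and the peak covered another RefSeq start of the gene. At EGLN1 the deposited start lay 1944 bp from the nearest RefSeq start, and the peak covered a RefSeq start. The EGLN1 sequence above is the stretch before that start, all of it inside the peak. At NLE1 the peak lay 3397 bp inside the gene from the RefSeq start, and at WWC1 23251 bp, so those peaks lay upstream of internal deposited starts.

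In all, 56 of the 490 (11.4%, 8.75 to 14.6) covered at least 1 RefSeq start of any gene, 29 a start of the assigned gene and 27 only that of another. Their median fold was 6.66 and their median width 544.5 bp, against 5.67 and 418 bp for the other 434. Folds of 10 or more made up 32.1% of the 56 and 14.7% of the 434. The BCAR3 peak (fold 20.9, 123 fragments) is shown because a stretch at its summit is poor in G and C. Its summit lay 1 bp before a RefSeq start of BCAR3, and the 250 bases before that start (chr1:93848152-93848401, minus strand) all lie in the peak, in capitals.
BCAR3: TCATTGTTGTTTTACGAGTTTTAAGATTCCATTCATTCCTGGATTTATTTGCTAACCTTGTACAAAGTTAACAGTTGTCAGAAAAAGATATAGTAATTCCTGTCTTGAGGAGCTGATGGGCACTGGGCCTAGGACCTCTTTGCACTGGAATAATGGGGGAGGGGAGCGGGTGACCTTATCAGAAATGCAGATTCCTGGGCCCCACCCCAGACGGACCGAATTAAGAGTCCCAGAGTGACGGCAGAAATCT
That stretch had 5 CpG and was 45.6% G and C, against 36 CpG in the EGLN1 stretch, with no GC box. It matched GGGGCCC or its reverse complement GGGCCCC 1 time. A stretch before another BCAR3 start, 175 bases of it in the same peak, was 70.4% G and C with 26 CpG and a GC box. Stretches of like composition were reached by the peaks at LINC00562 (38.8% G and C), ZNF41 (46.0%) and GALNT1 (47.2%, before the start inside its peak). Of the 250 bases, 10, 152 and 188 lay in the peak, so the LINC00562 value is mostly that of sequence outside it.

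At 78 members (15.9%, 12.8 to 19.5), a RefSeq start of another gene on the other strand lay within 1 kb upstream of the annotated start, a divergent pair. The share was 18.5% (16.2 to 20.9) for downstream peaks, 20.1% (18.7 to 21.6) for start-overlapping peaks and 7.08% (4.64 to 10.3) for promoter peaks 1 to 3 kb out. The upstream share was the lowest of the 3 classes within 1 kb, with an interval that overlaps both others. The partner was a long noncoding RNA gene in 61 pairs and a protein-coding gene in 17. The starts of a pair lay a median of 206.5 bp apart (quartiles 111.8 to 454.5). The median fold was 5.69 with a divergent neighbour and 5.76 without, and folds of 10 or more made up 17.9% (10.2 to 28.3) and 16.5% (13.1 to 20.4).

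In most pairs the peak lay on the partner's side. The summit was nearer to the partner's start than to the annotated one in 69 of 78, beyond the partner's start in 60 and between the starts in 18. A summit beyond the partner's start lies downstream of that start, in the direction the partner is read. The rule bears on this, since it puts the whole peak upstream of the annotated start and most gaps are short. The peak covered the partner's start in 32 pairs. In 2 of the 78 pairs the partner had a promoter peak assigned to it, ING1 and LAMTOR2, each among the 17 coding partners. Any promoter peak was present at 20.3% of all protein-coding genes, so little can be read from that count. The deposited table assigns each peak to 1 gene, so a shared peak counts for 1 partner.

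**Figure D4:**
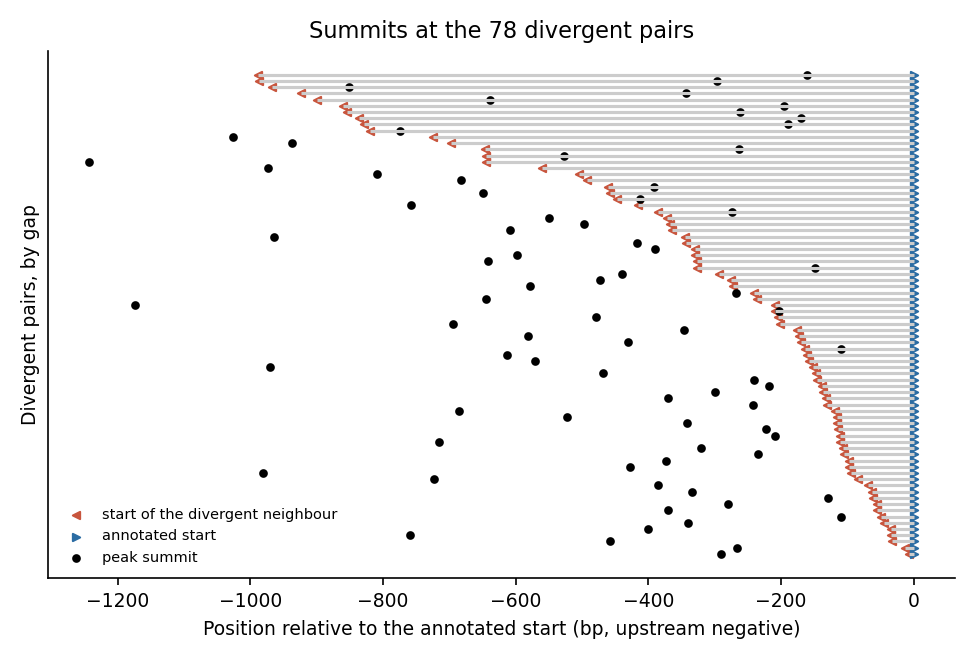
Each of the 78 divergent pairs as a line from the annotated start (blue, at 0) to the start of the neighbour on the other strand (red), sorted by gap, with the peak summit in black, in bp. In 60 pairs the summit lies to the left of the neighbour's start.

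POLR2B and NOA1, a GTPase gene of mitochondria, had the highest divergent peak (34.8), with the deposited POLR2B start 116 bp from the NOA1 start. That deposited start was 1174 bp from the nearest RefSeq start of POLR2B, which the peak preceded by 1268 bp. By RefSeq starts alone, the 2 genes therefore lie more than 1 kb apart, outside the pair definition. The summit lay 522 bp from the deposited POLR2B start and 406 bp from the start of NOA1, and the peak covered the NOA1 start. P4HB had a fold of 29.7 with a noncoding partner, LOC124904086, 416 bp away. NPY2R, a neuropeptide Y receptor gene, had 28.8 with its antisense gene NPY2R-AS1, 457 bp away. CAMTA1 (24.3) and LMX1B (20.3) were paired with the divergent transcripts CAMTA1-DT and LMX1B-DT. A pair of coding genes with the summit near a start was SCAMP5, a secretory carrier membrane protein gene, with RPP25, a subunit gene of ribonuclease P (fold 8.58, chosen after its value was seen). The summit lay 35 bp before the RPP25 start and 412 bp from the deposited start of SCAMP5. That deposited start was 38344 bp from the nearest RefSeq start of SCAMP5 in the promoter table. The stretch before the RPP25 start (chr15:74956773-74957022, minus strand), all inside the peak, is shown because the summit falls in it.
RPP25: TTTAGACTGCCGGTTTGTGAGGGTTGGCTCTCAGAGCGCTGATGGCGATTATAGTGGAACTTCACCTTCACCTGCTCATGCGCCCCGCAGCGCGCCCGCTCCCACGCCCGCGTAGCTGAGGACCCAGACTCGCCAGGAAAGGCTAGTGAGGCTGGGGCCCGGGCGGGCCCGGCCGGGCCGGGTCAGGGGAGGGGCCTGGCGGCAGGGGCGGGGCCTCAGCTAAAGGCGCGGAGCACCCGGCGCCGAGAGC
It was 70.4% G and C and held 2 GC boxes, an NRF1 core and a GGGGCCC match.

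Another promoter peak of the same gene was present for 180 members (36.7%, 32.5 to 41.2), against 22.3% (19.9 to 24.9) of downstream peaks and 14.3% (13.0 to 15.6) of start-overlapping peaks. For promoter peaks 1 to 3 kb out the share was higher, 42.5% (37.3 to 47.8), with an interval that overlaps the upstream one. Among peaks with a −log10 q of 10 or more the upstream share was 22.2% (16.4 to 28.8), against 10.2% (7.29 to 13.7) of downstream and 7.48% (6.36 to 8.74) of start-overlapping peaks. With upstream taken by summit it was 22.8%. A peak over a start of the same gene accompanied 88 members (18.0%), a downstream peak 65 (13.3%) and a peak 1 to 3 kb out 27 (5.51%). Another peak of any kind lay under 1000 bp away for 119 members (24.3%, 20.6 to 28.3).

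Where a start-overlapping peak of the same gene was present, it was the higher of the pair in 63 of 88 cases and the upstream peak in 25. The medians were 9.32 over the start and 6.03 upstream, with a median gap of 662.5 bp between the peaks. Start-overlapping peaks as a class were wider, with a median of 741 bp against 426 bp upstream, and the 88 pairs were not matched for width. In only 12 of the 88 was the deposited start the same for both peaks. ANKH was among the exceptions, with 29.9 upstream and 4.86 in a start-overlapping peak 340 bp away. P4HB had 29.7 upstream and 10.2 over the same start, and WWC1 28.0 and 15.5 with a gap of 22159 bp. The reverse held at AGPAT3, named after its values were seen, with 13.9 upstream and 62.9 over a start.

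More than 1 upstream peak was assigned to 10 genes. SEPT9, a septin gene, had 3, with folds from 5.09 to 6.84 at 3 different starts. UCKL1 had 2, with folds of 16.0 and 7.89, and CDKN2C, which encodes an inhibitor of the cell cycle kinases CDK4 and CDK6, had 14.2 and 11.3, in peaks 378 bp apart. Relative to the nearest RefSeq start of CDKN2C, the 14.2 peak lay 94 bp upstream and the 11.3 peak 285 bp downstream. SCAMP5 (8.95 and 8.58) and MGAT4A (7.45 and 7.21) followed. In LSM1 and ERBIN both peaks lay before the same start, and in the other 8 genes the starts differed.

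Nearly all members were assigned to protein-coding genes. These numbered 462 of 490, beside 21 long noncoding RNA genes, 4 microRNA genes, 1 small nucleolar RNA gene and 2 that were not matched. Noncoding genes made up 5.31% (3.5 to 7.68), against 6.70% (5.83 to 7.66) of start-overlapping and 6.40% (5.03 to 8.02) of downstream peaks. After MIR3190, the highest were LOC283335 (14.3), MIR6076 (12.5), LINC00562 (11.3) and SNORD1B (10.6). The deposited start of LOC283335 lay 173 bp from the start of TNS2, a tensin gene on the other strand. That deposited start was 7388 bp from the nearest RefSeq start of LOC283335, so the pair rests on the deposited start. A microRNA is often cut from a longer transcript, whose start need not be that of the annotated hairpin.

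An upstream peak was present at 451 of 19974 protein-coding genes (2.26%) and any promoter peak at 20.3%. CSF1, PRKCA and ZFP64, which the title names, were not among the 451, and neither was KMT2A, a ZFP64 target known from leukaemia. The protein kinase C and D list, enzymes that carry lipid second messenger signals, had 3 of 12 members with an upstream peak (25%, 5.49 to 57.2). PRKCE had a fold of 9.93 at 199 bp, from 31 fragments (21.1 to 44.0). PRKD3 had 6.34 at 151 bp and PRKD1 5.27 at 119 bp, from 12 fragments (6.20 to 21.0). The PRKCE peak lay before an internal start, 421762 bp from the nearest RefSeq start of the gene in the promoter table. The PRKD3 peak covered the start of its divergent transcript PRKD3-DT. Likewise, the PRKD1 peak covered the start of a noncoding gene on the other strand, LOC105370429.

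Other lists had few members among the upstream peaks. The cell cycle list had 3 of 40 (7.50%, 1.57 to 20.4), which were CDKN2C (14.2), the transcription factor gene E2F3 (7.27) and the cyclin gene CCNE1 (3.68). ZNF zinc finger genes had 9 of 509 (1.77%, 0.812 to 3.33), led by ZNF367 (30.3), ZNF70 (10.9) and ZNF697 (9.72), with a median of 5.73. ZBTB genes, which encode transcription factors with a BTB domain, had 2 of 41, ZBTB41 (6.03) and ZBTB18 (5.62). The hepatocyte identity list had 1 of 34, the nuclear receptor gene HNF4G (5.16). The Notch pathway had 1 of 32, the coactivator gene MAML1 (3.58). Of 35 genes of NF-kappaB and Toll-like receptor signalling, 1 had an upstream peak, the adaptor gene TRAF2 (3.48). The intervals of the ZBTB list (0.596 to 16.5), the hepatocyte list (0.0744 to 15.3), the Notch list (0.0791 to 16.2) and the NF-kappaB list (0.0723 to 14.9) include 2.26%, as do those of the cell cycle and ZNF lists. That of the kinase list lies above it, with 3 genes in a list of 12. Any promoter peak was present at 7 of these 12, against 20.3% of all protein-coding genes, so the list was not high for upstream peaks alone.

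In 7 lists no member had an upstream peak. With 3 counts as the limit for a count of 0, the share could be up to 9.09% of the 33 macrophage-directed secreted factors, 12% of the 25 KMT2 genes and partners, 8.33% of the 36 hepatocellular carcinoma drivers and 7.50% of the 40 DNA repair genes. It could be up to 3.90% of the 77 mitochondrial ribosomal protein genes, 3.53% of the 85 cytosolic ones and 0.765% of the 392 olfactory receptor genes. Of these lists, olfactory receptors alone have a limit below 2.26%. The upper bounds of the exact two-sided intervals for these counts of 0 were higher, from 0.937% for olfactory receptors to 13.7% for the KMT2 list. Any promoter peak, found at 20.3% of all protein-coding genes, was present at 8 of the macrophage-directed factors, 10 of the KMT2 genes, 17 of the carcinoma drivers and 9 of the repair genes. It was present at 12 of the 77 mitochondrial ribosomal genes, 18 of the 85 cytosolic ones and 1 of the 392 olfactory receptors.

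The deposited column of 85 genes, for which the sources used here give no rule, held 8 genes with an upstream peak. They were led by NPY2R (28.8), BHLHE41 (21.1), the cell adhesion gene MDGA1 (11.4), SAMD5 (9.65) and the troponin gene TNNI3 (6.51). Of the 314 upstream genes in the companion column of 3401 genes, 2.23% were also in the short one. The short column is 2.50% of the long one in size, a ratio that does not count the genes held by both. These percentages are not the same measure, and nothing more is read from them.

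Promoter windows next to upstream peaks were rich in G and C. The windows are the 250 bases before and 50 after a RefSeq start of a protein-coding gene. In 115, each of a different gene, an upstream peak reached into the window and no peak covered the start. Their median was 73.7% G and C with 35 CpG (quartiles 26 to 43), against 61.0% and 19 CpG (6 to 29) in 14030 windows with no peak. Windows whose start lay inside a start-overlapping peak had 71.7% and 33 CpG. A GC box was present in 86.1% of the 115 (78.4 to 91.8), in 80.6% (78.7 to 82.4) of the 1796 start-overlapping windows, in 57.4% of all 15811 windows and in 53.6% of those with no peak.

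The letters GGGGCCC or GGGCCCC were present in 26.1% of the 115 windows (18.3 to 35.1), 25.1% (23.1 to 27.2) of the start-overlapping ones, 12.3% of all and 10.6% (10.1 to 11.1) of those with no peak. The CCAAT box (CCAAT or ATTGG) went the other way, with 26.1% against 37.3% (36.5 to 38.1) of those with no peak. The start-overlapping windows were low too, at 23.9% (22.0 to 26.0). The 132 windows reached by a downstream peak, with the start outside it, held a CCAAT box in 43.2% (34.6 to 52.1), a GC box in 80.3% (72.5 to 86.7) and GGGGCCC or GGGCCCC in 19.7% (13.3 to 27.5). The interval for the CCAAT box overlaps slightly with that of the upstream windows (18.3 to 35.1), and those for the GC box and GGGGCCC overlap too. The remaining motifs, read on both strands, were ETS (CCGGAAG), the NRF1 core (GCGCATG), a partial CRE (TGACGT), the TATA box (TATAAA), the E-box (CACGTG) and YY1 (AAGATGG). In the 115 windows they were found in 12.2%, 3.48%, 6.09%, 6.09%, 6.96% and 6.96%, each with an interval that includes the share in all windows. The share of G and C moves with the GC box and the GGGGCCC letters, and its part in them was not tested. A match describes these letters only and is not a binding site.

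**Figure D5:**
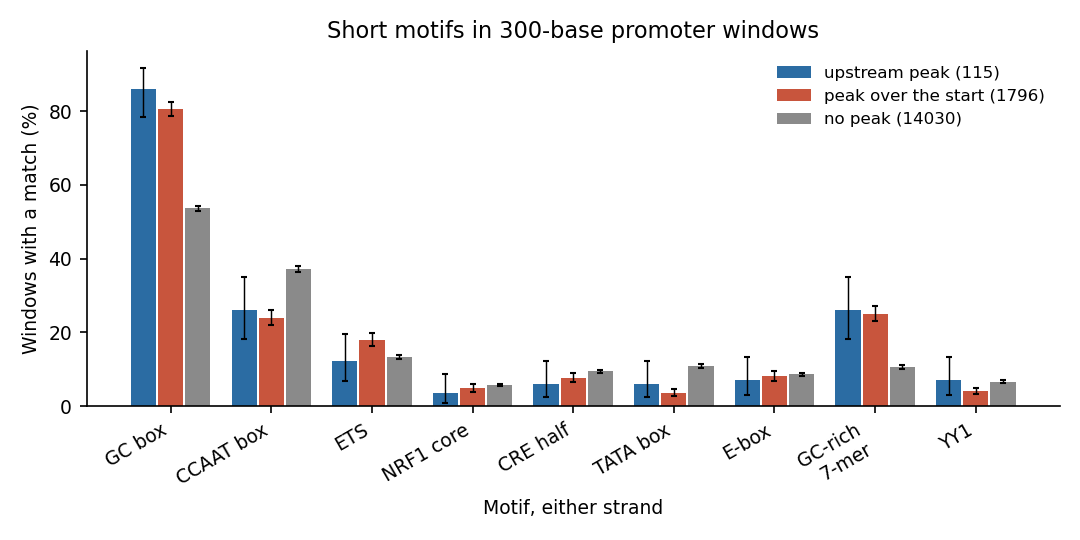
Share of 300-base promoter windows with a match to each motif on either strand (bars, with exact binomial 95% intervals), for 115 windows reached by an upstream peak, 1796 with the start inside a peak and 14030 with no peak. The GC box and the GC-rich 7-mer are commoner in both peak groups than in windows with no peak.

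Upstream peaks were spread over all 23 chromosomes in the list. Their share of the peaks of a chromosome ran from 14.0% on chromosome 22 (20 of 143, 8.76 to 20.8) downward, with 44 of 611 (7.2%, 5.28 to 9.55) on chromosome 1. It was lowest on chromosome 15 (10 of 251, 3.98%, 1.93 to 7.2). The intervals of chromosomes 22 and 15 leave out the overall 7.69%, and these 2 were picked as the extremes of 23. That of chromosome 14 (24 of 203, 11.8%, 7.72 to 17.1) leaves it out narrowly.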

How the data were processed

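Chromatin was precipitated with a Flag antibody from PLC/PRF/5 cells overexpressing ZFP64 and compared with an input library, 1 of each. Per the submitters' processing notes, hg38 was the build and the tools were MACS2 2.2.7.1, Bowtie2 2.4.1, deepTools 3.5.0 and SAMtools, with no role stated for any. The authors deposited, per the file headers, a linear fold (ratio of ChIP over background) and linear p-values and q-values for each peak. Their distance runs from the nearer peak edge to an assigned start, and 0 means overlap. No source used here names the tool or transcript set behind that distance. Total reads per library are unknown.

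Whole ChIP fragments at each summit were solved from fold and p-value, assuming a Poisson tail and 1 added to both terms of the fold, and were found for 490 of 490 members and 6293 of 6302 peaks with a p above 0 (99.86%, tolerance 0.001 in log10 p). The method recovered 500 of 500 simulated peaks. These were built with the same formula, so they check the solving step and not whether the deposited values follow that formula. Binomial and Poisson 95% intervals are exact and cover counting error only. That of a median comes from order statistics and treats peaks as independent, which peaks of 1 library are not. No test across samples was possible, so none is given.

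RefSeq starts and promoter sequences (GRCh38.p14) matched the genes of 376 members, and some genes had several starts. The table is not complete, so divergent neighbours and starts inside peaks are lower counts. The members, 14 gene lists and 9 motifs were chosen with earlier results of these data known. Named are the 10 highest, the 5 widest and the lowest peaks, up to 3 per list, and up to 5 noncoding genes, genes with several upstream peaks, divergent pairs and members of the deposited 85-gene column. Symbols stored as dates were replaced by gene ID. Python 3.11.15, pandas 2.3.3, NumPy 2.4.6, SciPy 1.17.1 and matplotlib 3.10.9 were used.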

Additional observations from a re-analysis of the deposited data

How the results depend on the processing

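Keeping only peaks with a fold of 5 or more gave an upstream share of 6.91%, a median fold of 7.25, a width of 480 bp at the median, 25.5% with a fold of 10 or more and 31.4% with another promoter peak. Keeping only a −log10 q of 10 or more gave 5.83%, 9.42, 559 bp, 44.3% and 22.2%. Taking upstream by summit gave 20.3%, 6.97, 588.5 bp, 31.0% and 22.8%, with 21.2% divergent and 9.41% noncoding. A window of 500 bp gave a share of 6.21%. A fold of 20 in place of 10 gave 5.10%. A neighbour start within 500 bp gave 12.4% divergent. Peaks narrower than 500 bp, an alternative chosen after seeing the data, gave a median fold of 5.20 and 5.62% with a fold of 10 or more. The other 15 of 37 alternative values stayed within the 95% interval of the reported value, including those without peaks that cover a RefSeq start and those on coding genes, 3 of which were also chosen after seeing the data. The first 2 settings select on fold or q, so their rise in fold follows from their construction. No paired analysis was possible because there is only 1 ChIP and 1 input library. The spread between cultures is unknown, and a median of 17 fragments a peak limits each fold.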
